A study of Homo sapiens with 8 samples.

Results

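The aryl hydrocarbon receptor (AHR) genes described here are 8 of the 60230 genes in the deposited table: the receptor gene AHR, its partner ARNT, and the classic target genes CYP1A1, CYP1A2, CYP1B1, AHRR, TIPARP, and ALDH3A1. They were taken by gene symbol, and the list was selected on earlier fold changes of these same samples against DMSO, with no threshold on a value. Their changes are therefore given as descriptions, with an error and an interval and without a p-value. Whether a member passed the cutoff of a fit, termed a call below, is likewise a description and lends no support to the list. RNA was sequenced from HepG2 cells that overexpress CYP3A4, a drug-metabolizing enzyme. HepG2 is an established human liver cancer line. Control cells received 0.2% DMSO, and the other cells were exposed for 24 h to compound 4, compound 5, or compound 6, each at its own IC50, so the concentrations of the 3 compounds differed. All 4 groups carried the CYP3A4 construct, and each had 2 replicates, labelled day 1 and day 2. The 3 compounds are bisphenol antioxidants used in plastics. Compounds 4 and 6 are methylene-bridged and carry methyl groups, with tert-butyl groups in compound 4 and cyclohexyl groups at the same positions in compound 6. Compound 5 is ethylidene-bridged and carries only tert-butyl groups beside its hydroxyls and at the ring positions opposite them.

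AHR is a ligand-activated transcription factor of the bHLH-PAS family. In the resting cell it is held in the cytoplasm by a chaperone complex. A bound ligand, typically a planar aromatic compound, sends it to the nucleus, where it pairs with ARNT and binds DNA at sites with the core GCGTG. Its best known targets in liver cells are the CYP1 oxygenases. AHRR competes for ARNT and TIPARP modifies the receptor by ADP-ribosylation, so both act as negative feedback.

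CYP1A1 and CYP1A2 lie side by side in the genome. In GRCh38, CYP1A1 (ENSG00000140465) occupies chr15:74719542-74725610 on the minus strand and CYP1A2 (ENSG00000140505) chr15:74748844-74756202 on the plus strand. Their starts are 23234 bases apart, and the genes are transcribed away from each other. The 250 bases upstream of the RefSeq start (GRCh38.p14) are printed for both neighbours, because CYP1A1 was measured in every sample and CYP1A2 was close to undetected, and for the first start of TIPARP, a target whose level stayed near that of DMSO. The windows are chr15:74725529-74725778 (minus strand), chr15:74748595-74748844 (plus strand), and chr3:156674340-156674589 (plus strand). They read 5′ to 3′ toward the start, and capitals mark the core GCGTG on either strand, which appears as CACGC when it lies on the other strand.
CYP1A1: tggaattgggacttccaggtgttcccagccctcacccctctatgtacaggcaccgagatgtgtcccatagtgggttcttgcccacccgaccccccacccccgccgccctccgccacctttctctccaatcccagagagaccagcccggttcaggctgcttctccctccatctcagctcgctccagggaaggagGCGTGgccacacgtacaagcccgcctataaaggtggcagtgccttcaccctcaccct
CYP1A2: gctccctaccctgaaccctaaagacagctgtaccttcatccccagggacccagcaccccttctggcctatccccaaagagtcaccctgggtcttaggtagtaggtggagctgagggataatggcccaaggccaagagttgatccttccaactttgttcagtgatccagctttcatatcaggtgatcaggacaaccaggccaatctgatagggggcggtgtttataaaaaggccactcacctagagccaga
TIPARP: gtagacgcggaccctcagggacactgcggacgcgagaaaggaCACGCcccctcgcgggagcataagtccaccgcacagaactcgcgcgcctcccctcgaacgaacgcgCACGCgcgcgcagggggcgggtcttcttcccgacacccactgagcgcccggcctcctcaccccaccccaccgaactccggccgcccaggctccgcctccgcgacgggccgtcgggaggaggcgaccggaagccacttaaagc
The CYP1A1 window held the core 1 time, with its nearer end 52 bases before the start. CYP1A2 had 0 matches in its window. The first TIPARP window held 2, the nearer of them 137 bases before the start, and the windows of its other 2 starts held 0. Of the remaining members in the RefSeq table, AHR and ARNT had 0 matches and the 2 AHRR starts had 1 and 2. For comparison, 32.2% of 35116 promoter windows of this length held GCGTG or CACGC, and 4.52% held the longer TNGCGTG, which contains the core and was matched among the members only at the first AHRR start. The window of CYP2S1, not a member but called higher with every compound in the fit of all samples, held 0 matches. A match is a description of letters in the window and was not tested as a binding site. Sequence farther upstream than these windows was not read. Whether matches go with the level of a gene was not tested. Windows were read for 6 of the 8 members, all except CYP1B1 and ALDH3A1.

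The libraries held between 9472261 and 13308975 counts on genes, and 3 counts corresponded to between 0.234 and 0.312 CPM (counts relative to the TMM-scaled library total), counting error only. Hepatocyte markers were all detected, and their summed level was 41369 and 39557 CPM in the DMSO replicates and between 30930 and 37874 CPM in the 6 treated samples, lower in every treated sample. Of 10 markers of blood, endothelial, and stromal cells, PTPRC, CD3E, and DCN were at 0 in all 8 samples, and LYZ, at 1852 to 2990 CPM, was the most abundant. The 2 of these 10 that were tested, LYZ and ACTA2, were both called lower with compound 5 (log2 fold changes -0.47 and -1.20, edgeR adjusted p = 0.0315 and 8.37e-04). The part of these markers in the results was not tested. The deposited labels do not state that the 2 replicates of a group were separate cultures, so p-values measure the spread between these samples, which may be technical. In bulk RNA, fewer cells of a type and less RNA per cell cannot be told apart.

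Of the 8 members, 5 passed the filter on low counts and entered the edgeR fit over 13404 genes: CYP1A1, TIPARP, ALDH3A1, AHR, and ARNT. CYP1A2, CYP1B1, and AHRR did not pass. At an adjusted p under 0.05 (edgeR), 2 of the 5 were called with compound 4, beside 11.9% of all genes tested. With compound 5, 3 of the 5 were called beside 28.1%, and with compound 6, 2 of the 5 beside 4.40%. Every one of these calls was toward a higher level than DMSO. Between compounds, 1 member was called for compound 5 against 4 (13.9% of all genes), 0 for compound 6 against 4 (0.0448%), and 1 for compound 6 against 5 (9.92%). For compound 5 against 4 the alternatives called between 1 and 4 members. Since the list was chosen with these comparisons known, nothing is read from these counts. The comparisons with DMSO share the same 2 control samples.

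**Figure D1:**
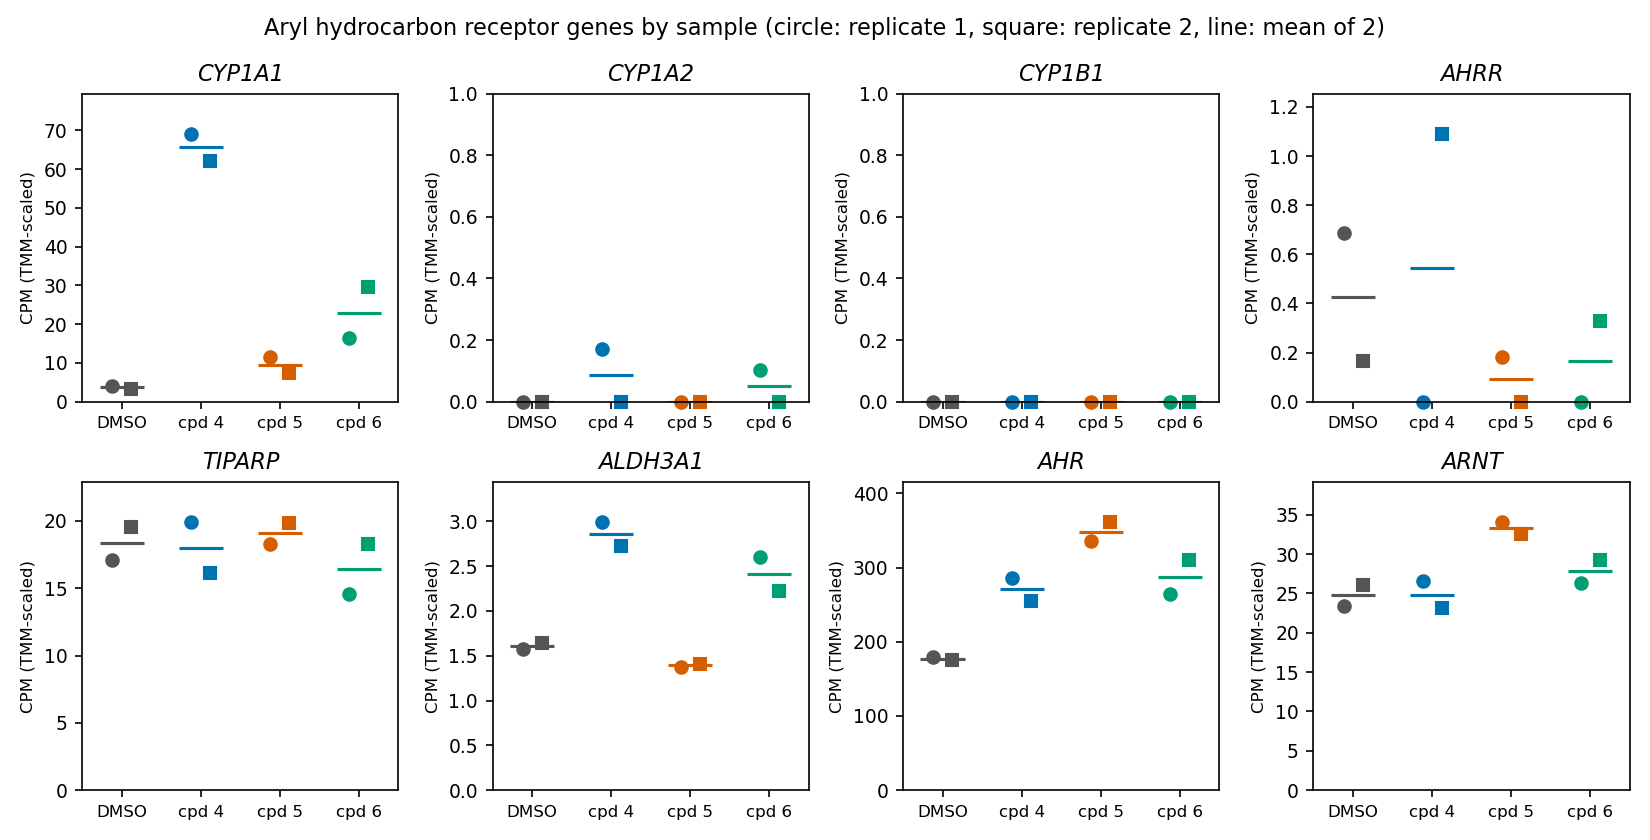
Level of each of the 8 genes in each sample, in CPM scaled by TMM, on separate linear axes that start at 0; circles are replicate 1, squares replicate 2, and lines the mean of the 2 replicates. The CYP1A1 points of compound 4, at 69.1 and 62.0 CPM, stand above all others of that gene, AHR lies higher in every treated sample than in DMSO, and TIPARP overlaps with DMSO for each compound.

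CYP1A1 encodes the oxygenase that metabolizes polycyclic aromatic compounds and is the usual readout of AHR activity. Its level was 4.13 and 3.20 CPM in the DMSO replicates (42 and 39 counts). The compound 4 samples were at 69.1 and 62.0 CPM, those of compound 5 at 11.4 and 7.45 CPM, and those of compound 6 at 16.5 and 29.5 CPM. All 6 treated samples lay above both DMSO samples, and none of the 4 groups overlapped with another. With 2 samples a group, such separation is not particular to CYP1A1: the 4 groups of CYP24A1 were also apart. The share of all genes with groups apart was not counted, here or for the other genes. The order of the CYP1A1 groups was DMSO, compound 5, compound 6, and compound 4. Relative to DMSO, compound 4 gave a log2 fold change of 4.17 (SE 0.30, 95% interval 3.51 to 4.83), an 18.0-fold higher level. It was 2.67 with compound 6 (SE 0.31, interval 1.98 to 3.35), or 6.35-fold, and 1.36 with compound 5 (SE 0.33, interval 0.63 to 2.10), or 2.57-fold. Among all genes tested, ordered by their change, CYP1A1 ranked 19 from the highest with compound 4, 35 with compound 6, and 302 with compound 5.

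The CYP1A1 values of compound 6 were the least even between replicates. The difference from the DMSO sample of the same day was 1.95 on the log2 scale on day 1 and 3.13 on day 2. For compound 4 these differences were 4.01 and 4.20, and for compound 5 they were 1.43 and 1.18. Leaving out 1 library gave CYP1A1 log2 fold changes between 3.99 and 4.35 with compound 4. With compound 5 it fell below the cutoff without DMSO replicate 2 (log2 fold change 1.21) and without compound 5 replicate 1 (1.06). With compound 6 it did so without DMSO replicate 2 (2.48), a fit in which only 1 gene of all was called for compound 6. The sign of the change was positive in each of these fits.

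Between compounds, 3 pairs were compared, with p-values adjusted over all genes tested. CYP1A1 was lower with compound 5 than with compound 4, with a log2 difference of -2.80 (SE 0.26, interval -3.38 to -2.22). Compound 6, which has cyclohexyl in place of the tert-butyl groups of compound 4, gave a CYP1A1 level lower by a log2 difference of -1.50 (interval -2.04 to -0.97). This pair was not called in the edgeR fit of all samples, where 6 genes were called in all and 1316 had an unadjusted p under 0.05 (edgeR). CYP1A1 was called for this pair by DESeq2 (75 genes called), without a filter (294 genes), and without compound 4 replicate 1 (117 genes, log2 difference -1.42). Compound 6 exceeded compound 5 by 1.30 (interval 0.71 to 1.90), a call that was lost at a cutoff of 0.01 and without compound 5 replicate 1 (1.63), compound 5 replicate 2 (1.02), or compound 6 replicate 2 (0.79). These differences are between doses set at each compound's IC50, not at a matched concentration.

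**Figure D2:**
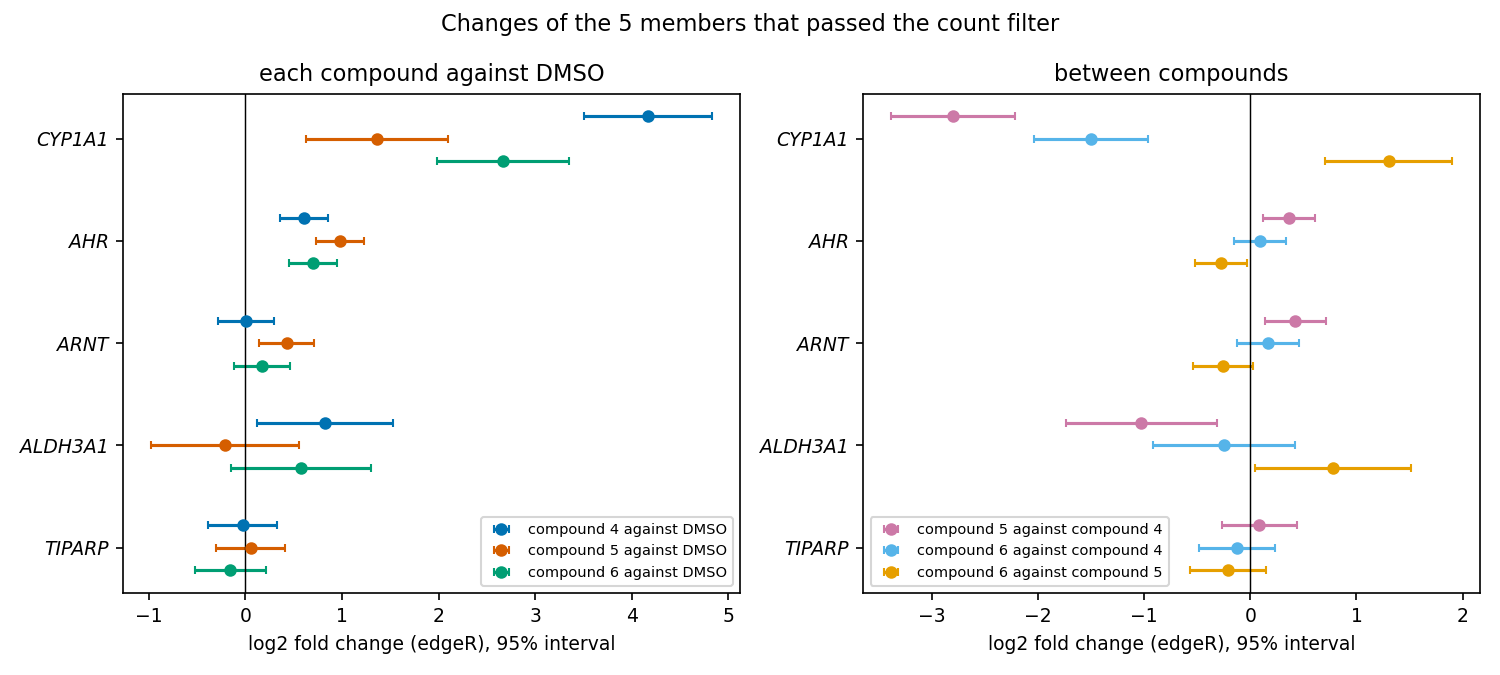
Log2 fold changes (edgeR) of the 5 genes that passed the count filter, with 95% intervals as bars; the left panel sets each compound against DMSO and the right panel the compounds against each other. CYP1A1 with compound 4, at 4.17, is the largest of the 15 changes against DMSO, and all 3 TIPARP intervals on the left cross 0.

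The other CYP1 genes were at or near the limit of detection. CYP1A2 encodes the liver enzyme that metabolizes caffeine and aromatic amines. It had 2 counts in compound 4 replicate 1, 1 count in compound 6 replicate 1, and 0 in the other 6 samples. All groups were thus at or under the floor of 3 counts per library, and no fold change is given. Of the 31-base stretches of CYP1A2 transcripts, 8.41% also occur in other genes, against 0.78% for CYP1A1. CYP1B1 (ENSG00000138061, chr2:38066973-38109902, minus strand), an oxygenase of steroids and aromatic compounds outside the liver, had 0 counts in all 8 samples. At these depths both genes may have been present below the floor.

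AHRR and TIPARP are the feedback genes. AHRR (ENSG00000063438, chr5:304176-438291, plus strand) had 7 and 2 counts in DMSO and 0 and 14 with compound 4. It had 2 and 0 counts with compound 5 and 0 and 4 with compound 6. The highest and one of the lowest values belonged to the same group, and the gene did not pass the filter. It overlaps PDCD6 on the same strand, a gene with 623 to 1056 counts per library, and 3.12% of its 31-base stretches also occur in other genes, mainly PDCD6. TIPARP (ENSG00000163659, chr3:156673235-156706770, plus strand) was well measured. It stood at 17.1 and 19.5 CPM in DMSO. The samples of compound 4 were at 19.9 and 16.1 CPM, of compound 5 at 18.3 and 19.8, and of compound 6 at 14.6 and 18.3. Every treated group overlapped with DMSO. The log2 fold changes were -0.03 with compound 4 (interval -0.39 to 0.33), 0.06 with compound 5 (-0.30 to 0.41), and -0.15 with compound 6 (-0.52 to 0.21), and none was called.

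ALDH3A1 (ENSG00000108602, chr17:19737984-19748943, minus strand) encodes an aldehyde dehydrogenase. It was a low-count gene, with 15 to 35 counts per library. Its level was 1.57 and 1.64 CPM in DMSO. The samples of compound 4 were at 2.99 and 2.73 CPM, of compound 5 at 1.37 and 1.41, and of compound 6 at 2.60 and 2.22. Both replicates of compounds 4 and 6 lay above DMSO and both of compound 5 below it. The log2 fold change was 0.82 with compound 4 (SE 0.32, interval 0.12 to 1.53), 0.57 with compound 6 (interval -0.15 to 1.30), and -0.21 with compound 5 (interval -0.97 to 0.56). None of the 3 was called. Compound 5 was below compound 4 by a log2 difference of -1.03 (interval -1.74 to -0.32), which was not called in the edgeR fit of all samples and was called with upper-quartile scaling (-1.10), library-size scaling (-1.09), and a minimum of 10 counts in every sample (-1.02).

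The receptor gene itself was higher with each compound. AHR (ENSG00000106546, chr7:16916359-17346152, plus strand) was measured at 179 and 176 CPM in DMSO. The samples of compound 4 had 286 and 255 CPM, of compound 5 335 and 361, and of compound 6 265 and 310. No treated sample overlapped with DMSO, whereas the samples of compounds 4 and 6 overlapped with each other. The log2 fold change was 0.61 with compound 4 (SE 0.11, interval 0.36 to 0.86), 0.98 with compound 5 (SE 0.11, interval 0.73 to 1.22), and 0.70 with compound 6 (SE 0.11, interval 0.45 to 0.95). Compound 5 thus had the highest AHR level and, among the compounds, the lowest CYP1A1 level. The AHR difference between compounds 5 and 4 was 0.36 (interval 0.12 to 0.61) and that between compounds 6 and 5 was -0.28 (interval -0.52 to -0.03), and neither was called. The first was called in 7 alternatives: with DESeq2 (0.40), RLE scaling (0.39), no filter (0.39), and a minimum of 10 counts (0.37), and without compound 4 replicate 1 (0.45), compound 6 replicate 1 (0.38), or compound 6 replicate 2 (0.38). Between compounds 6 and 4 it was 0.09 (interval -0.16 to 0.33).

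Leaving out 1 library gave AHR log2 fold changes between 0.92 and 1.05 with compound 5. With compound 4 the call was lost without DMSO replicate 1 (log2 fold change 0.62) or DMSO replicate 2 (0.60). With compound 6 it was lost without DMSO replicate 1 (0.71), DMSO replicate 2 (0.69), or compound 6 replicate 2 (0.59). At a cutoff of 0.01 the AHR call with compound 6 was lost, and with compound 5 AHR was the only member left. Of the 31-base stretches of AHR transcripts, 31.6% also occur in other genes, mainly AC019117.2, an overlapping gene with 0 to 12 counts per library.

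ARNT (ENSG00000143437, chr1:150809705-150876768, minus strand), the partner that AHR shares with the hypoxia-inducible factors, was at 23.4 and 26.1 CPM in DMSO. The samples of compound 4 had 26.6 and 23.1 CPM, of compound 5 34.1 and 32.6, and of compound 6 26.4 and 29.3. Compounds 5 and 6 lay above both DMSO samples and compound 4 overlapped with them. The log2 fold change was 0.43 with compound 5 (SE 0.13, interval 0.14 to 0.71), 0.17 with compound 6 (interval -0.12 to 0.46), and 0.00 with compound 4 (interval -0.29 to 0.29). Only the first was called. That call was lost with DESeq2 (0.46), upper-quartile scaling (0.34), library-size scaling (0.32), and a cutoff of 0.01. It was also lost without DMSO replicate 1 (0.35), DMSO replicate 2 (0.53), compound 5 replicate 1 (0.42), or compound 5 replicate 2 (0.46). The ARNT difference between compounds 5 and 4 was 0.42 and was not called, but it was called with RLE scaling (0.45), no filter (0.45), and a minimum of 10 counts (0.43), and without compound 4 replicate 1 (0.53).

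The wider pathway was described with 87 further genes in 5 lists, of which 66 were tested and 9 were at 0 in all samples. The lists in this report were chosen with earlier results of these data known. Most genes named from them were picked as the most extreme called ones. Their adjusted p-values are therefore descriptions and not independent support. With compound 4, 12 were called higher and 3 lower, beside 6.50% and 5.42% of all genes. With compound 5 these numbers were 20 and 6, beside 13.9% and 14.2%, and with compound 6 they were 8 and 1, beside 2.80% and 1.60%. The median log2 fold change of the 66 genes was -0.00, 0.19, and 0.09 for compounds 4, 5, and 6. Over all genes these medians were 0.00, -0.03, and 0.00. Among the genes reported by name, CYP2S1, EREG, IGFBP1, KYNU, and SLC7A5 were called higher with all 3 compounds and VAV3 lower with all 3. The compound 6 calls of CYP2S1, EREG, IGFBP1, KYNU, and SLC7A5 were all lost without DMSO replicate 2. The VAV3 calls with compounds 4 and 6 were lost in several alternatives. None of the genes plotted by fold change was called in opposite directions with different compounds.

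Upstream of transcription, the 4 genes of the receptor's chaperone complex gave 0 calls with any compound. Among the 11 tested relatives of AHR in the bHLH-PAS family, compound 4 raised 2, compound 5 raised 3 and lowered 1, and compound 6 raised 1. Of all genes, 6.50%, 13.9%, and 2.80% were called higher with compounds 4, 5, and 6, and 5.42%, 14.2%, and 1.60% lower. NPAS1, a family member known from neurons, was called higher with compounds 4 (log2 fold change 1.20, SE 0.27, edgeR adjusted p = 0.0167) and 6 (1.23, SE 0.27, edgeR adjusted p = 0.0331), from means of 2.12 CPM in DMSO to 4.92 and 5.00. Neither NPAS1 call was made by DESeq2, and both were lost without DMSO replicate 1 (1.04 and 1.07) or DMSO replicate 2 (1.39 and 1.42). The first was also lost without compound 4 replicate 2 (1.12), and the second without compound 5 replicate 1 (1.25), compound 5 replicate 2 (1.23), or compound 6 replicate 2 (1.07). The circadian factor NPAS2 was higher with compound 5 by 0.91 (SE 0.12, edgeR adjusted p = 6.02e-04). With compound 4, NPAS2 was higher by 0.60 (edgeR adjusted p = 0.0107), a call lost without either DMSO replicate (0.47 to 0.73 over the omissions). The circadian factor BMAL2 was lower with compound 5 (-0.44, edgeR adjusted p = 0.0286). That call was lost by DESeq2, without a filter, and without any 1 of the DMSO or compound 5 replicates (-0.49 to -0.37). HIF1A, the hypoxia-inducible subunit that also pairs with ARNT, was higher with compound 5 by 0.61 (edgeR adjusted p = 0.0056), a call lost without compound 5 replicate 1 (0.57). Of 16 coregulators tested, compound 4 raised 2 and lowered 1, compound 5 raised 4, and compound 6 changed 0, beside 11.9%, 28.1%, and 4.40% of all genes called in either direction. KLF6, a partner of AHR at non-classical sites, rose by 1.43 with compound 5 (SE 0.16, edgeR adjusted p = 2.36e-04) and by 0.75 with compound 4 (edgeR adjusted p = 0.0121), the latter lost without DMSO replicate 2 (0.66). RELB, an NF-kB subunit that binds AHR, was called higher with compounds 4 (0.90) and 5 (0.78), but not by DESeq2. The compound 4 call was also lost with only the groups compared. Both RELB calls were lost without either DMSO replicate, the first also without compound 4 replicate 2 and the second without either compound 5 replicate, with values of 0.74 to 1.05 and 0.66 to 0.93 over the omissions. The cell cycle regulator RB1 was called lower with compound 4 (-0.39, edgeR adjusted p = 0.0474). That call was lost in 7 of the 8 fits that left out a library (-0.46 to -0.31), all but that without compound 4 replicate 1. It was also lost with the replicate block (edgeR adjusted p 0.059), by DESeq2, without a filter, and with only the groups compared.

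Downstream, 28 further AHR-responsive genes were tested. Compound 4 raised 7 and lowered 2, compound 5 raised 12 and lowered 3, and compound 6 raised 6 and lowered 1, beside the 6.50% and 5.42%, 13.9% and 14.2%, and 2.80% and 1.60% of all genes. CYP2S1, an extrahepatic oxygenase that AHR ligands induce, was at 31.4 and 28.2 CPM in DMSO. Compound 4 samples had 95.4 and 87.0 CPM, compound 5 samples 91.9 and 83.4, and compound 6 samples 66.6 and 103. Unlike CYP1A1, its treated groups overlapped with one another. Its log2 fold change was 1.62 with compound 4 (edgeR adjusted p = 7.58e-04), 1.56 with compound 5 (edgeR adjusted p = 3.27e-04), and 1.52 with compound 6 (edgeR adjusted p = 0.00462), the last lost without DMSO replicate 2. NQO1, a quinone reductase driven by both AHR and NRF2, was not called with any compound. Its level was 1633 and 1470 CPM in DMSO and between 1628 and 1891 CPM in the treated samples, with log2 fold changes of 0.20, 0.12, and 0.12 for compounds 4, 5, and 6.

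CXCL8, a neutrophil chemokine on this list, had 4 and 7 counts in DMSO and 105 and 195 with compound 5. The log2 fold change was 4.64 (SE 0.42). Its DMSO counts lay below the level of the count filter, which it passed through treated samples. Its change is therefore a description without a p-value, although it is counted among the genes raised with compound 5. The growth factor AREG rose by 3.48 with compound 5 (edgeR adjusted p = 4.64e-04) and by 2.09 with compound 6 (edgeR adjusted p = 0.0377). The related EREG rose by 2.09 with compound 6 (edgeR adjusted p = 0.00465). The AREG call of compound 6 was lost without DMSO replicate 1, DMSO replicate 2, compound 5 replicate 1 or 2, or compound 6 replicate 2, with log2 fold changes down to 0.96 over all single omissions, and that of EREG without DMSO replicate 2. The glutathione transferase GSTA1 had 13 and 23 counts in DMSO and 1 and 6 with compound 5. It passed the filter through the DMSO samples and 1 compound 5 sample lay under the floor of 3 counts, so no fold is given, although it is counted among the genes lowered with compound 5. That call was not made by DESeq2 and was lost without DMSO replicate 2 or compound 5 replicate 1. GSTA1 shares 47.4% of its 31-base stretches with other genes. UGT1A1, a glucuronosyltransferase that AHR ligands induce, was called only with compound 4 (1.49, edgeR adjusted p = 0.0487), and that call was lost in 7 of the 8 fits that left out a library, all but the one without DMSO replicate 1, where the value was 2.57. It was also lost with DESeq2, RLE scaling, library-size scaling, and only the groups compared. Its value was 0.83 without DMSO replicate 2, and it shares 51.3% of its 31-base stretches with other genes. SELENBP1, a selenium-binding protein, was lower with compound 5 (-0.92, edgeR adjusted p = 0.00511), a call lost without compound 5 replicate 1 (-0.80). NEDD9, a scaffold protein of cell adhesion, was lower with compound 4 (-0.58, edgeR adjusted p = 0.0328), a call lost with only the groups compared. The NEDD9 call was also lost without DMSO replicate 1, DMSO replicate 2, compound 4 replicate 2, or compound 5 replicate 1 (-0.84 to -0.35). VAV3, a guanine nucleotide exchange factor, was lower by 0.87 with compound 5 (edgeR adjusted p = 0.00298). Its calls with compounds 4 (-0.57) and 6 (-0.65) were lost with the replicate as a block (edgeR adjusted p 0.055 and 0.063). That of compound 4 was also lost with only the groups compared and without DMSO replicate 2 (-0.38), compound 4 replicate 2 (-0.40), compound 5 replicate 1 (-0.56), or compound 5 replicate 2 (-0.56). That of compound 6 was lost in 6 of the 8 fits that left out a library, all but those without a compound 4 replicate, with values between -0.81 and -0.46 over the omissions.

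Kynurenine, a tryptophan metabolite, is an AHR ligand made inside cells. Of 7 enzymes of that pathway tested, KYNU, which breaks kynurenine down, was called higher with all 3 compounds. Calls in this list numbered 1, 3, and 1 of 7 with compounds 4, 5, and 6, beside 11.9%, 28.1%, and 4.40% of all genes, and its median log2 fold change with compound 5 was -0.32. KYNU stood at 81.1 and 70.4 CPM in DMSO. Compound 4 samples had 136 and 131 CPM, compound 5 samples 206 and 187, and compound 6 samples 115 and 138. The log2 fold changes were 0.81 (edgeR adjusted p = 0.00248), 1.37 (edgeR adjusted p = 9.66e-05), and 0.74 (edgeR adjusted p = 0.0117) for compounds 4, 5, and 6. The call of compound 6 was lost without DMSO replicate 1, DMSO replicate 2, or compound 6 replicate 2, with values from 0.61 to 0.89 over the omissions. HAAO and QPRT, later enzymes on the way to NAD, fell with compound 5 by 0.90 (edgeR adjusted p = 0.00189) and 0.48 (edgeR adjusted p = 0.0115), the latter lost without any 1 of the DMSO or compound 5 replicates.

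**Figure D3:**
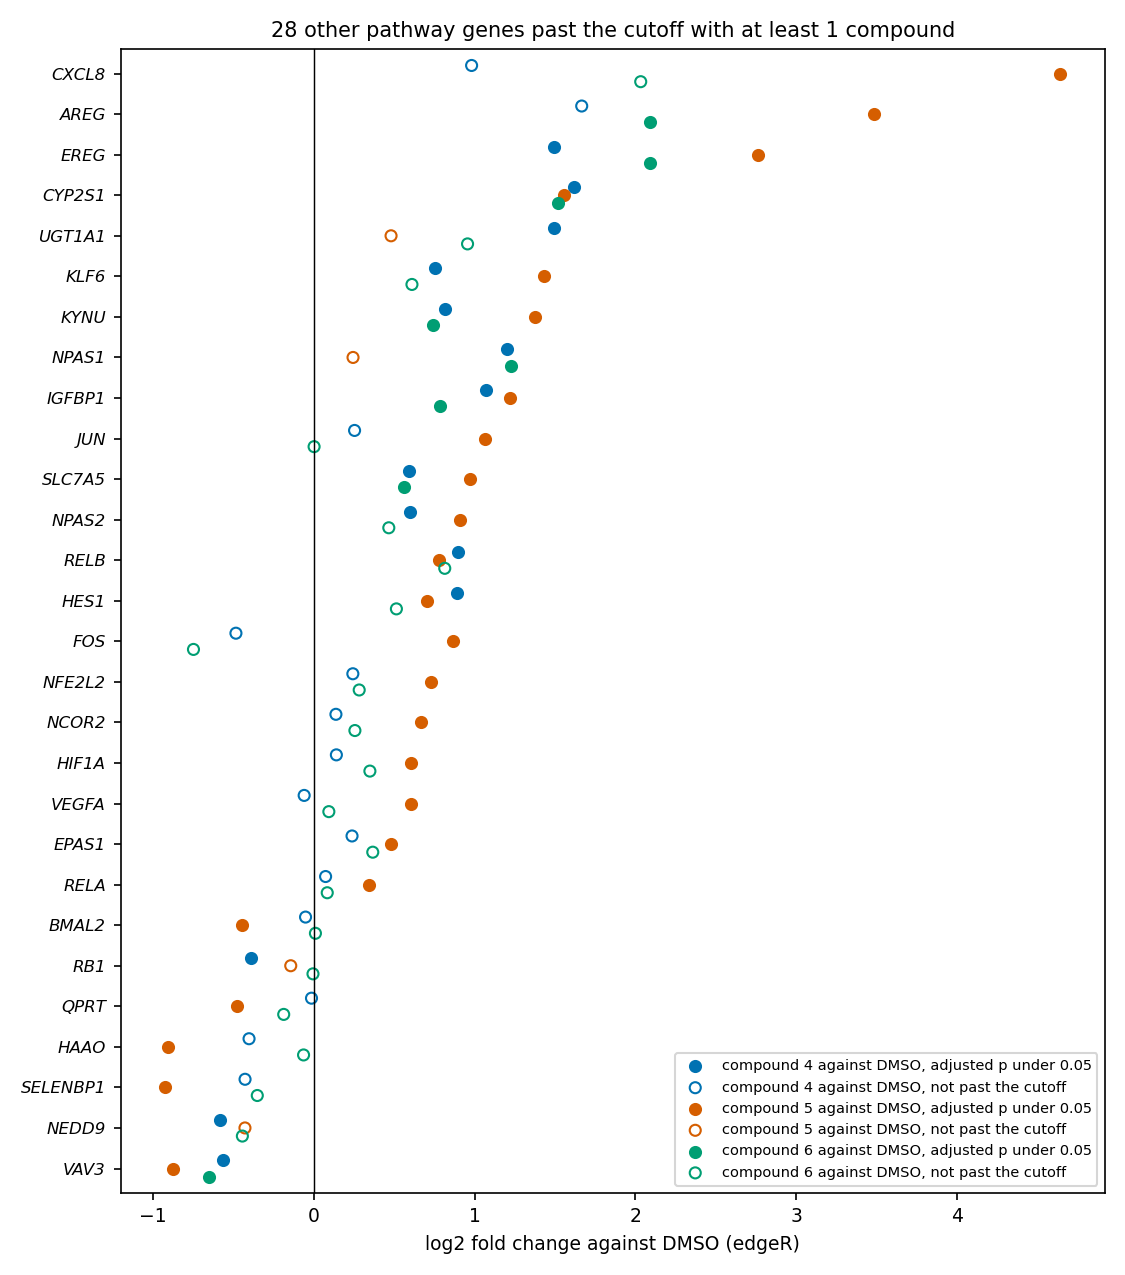
Log2 fold change against DMSO (edgeR) of 28 further pathway genes that passed an adjusted p of 0.05 with at least 1 compound, ordered by the largest of their 3 values and without GSTA1; filled points passed the cutoff and open points did not. Compound 5 gives the highest point for CXCL8 (4.64), a gene that passed the count filter through treated samples. The 3 CYP2S1 points lie together between 1.52 and 1.62.

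CYP1A1 was also set beside the other cytochrome P450 genes. Of 55 others, 24 were tested and 17 were at 0 in all samples. Compound 4 raised 6 and lowered 2, compound 5 raised 8 and lowered 4, and compound 6 raised 5 and lowered 1. Over all genes, 6.50% and 5.42%, 13.9% and 14.2%, and 2.80% and 1.60% were called higher and lower with compounds 4, 5, and 6. Among those called, CYP1A1 had the highest change with compounds 4 and 6, followed with compound 4 by CYP3A5 (log2 fold change 3.01) and CYP24A1 (2.53). With compound 5 the highest were CYP2B6 (1.58), CYP2S1 (1.56), and CYP4F11 (1.54), above CYP1A1 (1.36). CYP7A1, the rate-limiting enzyme of bile acid synthesis, had 14 and 25 counts in DMSO. Compound 4 samples had 2 and 2 counts, compound 5 samples 3 and 7, and compound 6 samples 6 and 5. It passed the filter through the DMSO samples and lay under the floor of 3 counts with compound 4, so no fold is given for it, although its calls with compounds 4 and 5 are among those counted as lowered. Both calls were lost without DMSO replicate 2. The call with compound 5 was also lost without compound 5 replicate 1 and at a cutoff of 0.01. CYP51A1, an enzyme of cholesterol synthesis, was called lower with compounds 4, 5, and 6 (log2 fold changes -0.97, -0.74, and -0.68), the last lost without DMSO replicate 1, DMSO replicate 2, or compound 6 replicate 2 (values -0.78 to -0.55 over the omissions). It shares 80.0% of its 31-base stretches with other genes. CYP19A1, the aromatase, was lower with compound 5 (-1.74, SE 0.28, edgeR adjusted p = 0.00142). CYP3A4, the gene the cells overexpress, was at 198 and 206 CPM in DMSO. Compound 4 samples had 287 and 215 CPM, compound 5 samples 370 and 421, and compound 6 samples 170 and 170. Its order across the compounds, highest with compound 5, thus differed from that of CYP1A1. The CYP1A1 order was shared by CYP24A1, with log2 fold changes of 2.53, 1.94, and 1.53 for compounds 4, 6, and 5. It was also that of CYP3A5 (3.01, 1.41, and 1.23), whose samples of compounds 5 and 6 overlapped. Both genes were called higher with all 3 compounds.

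**Figure D4:**
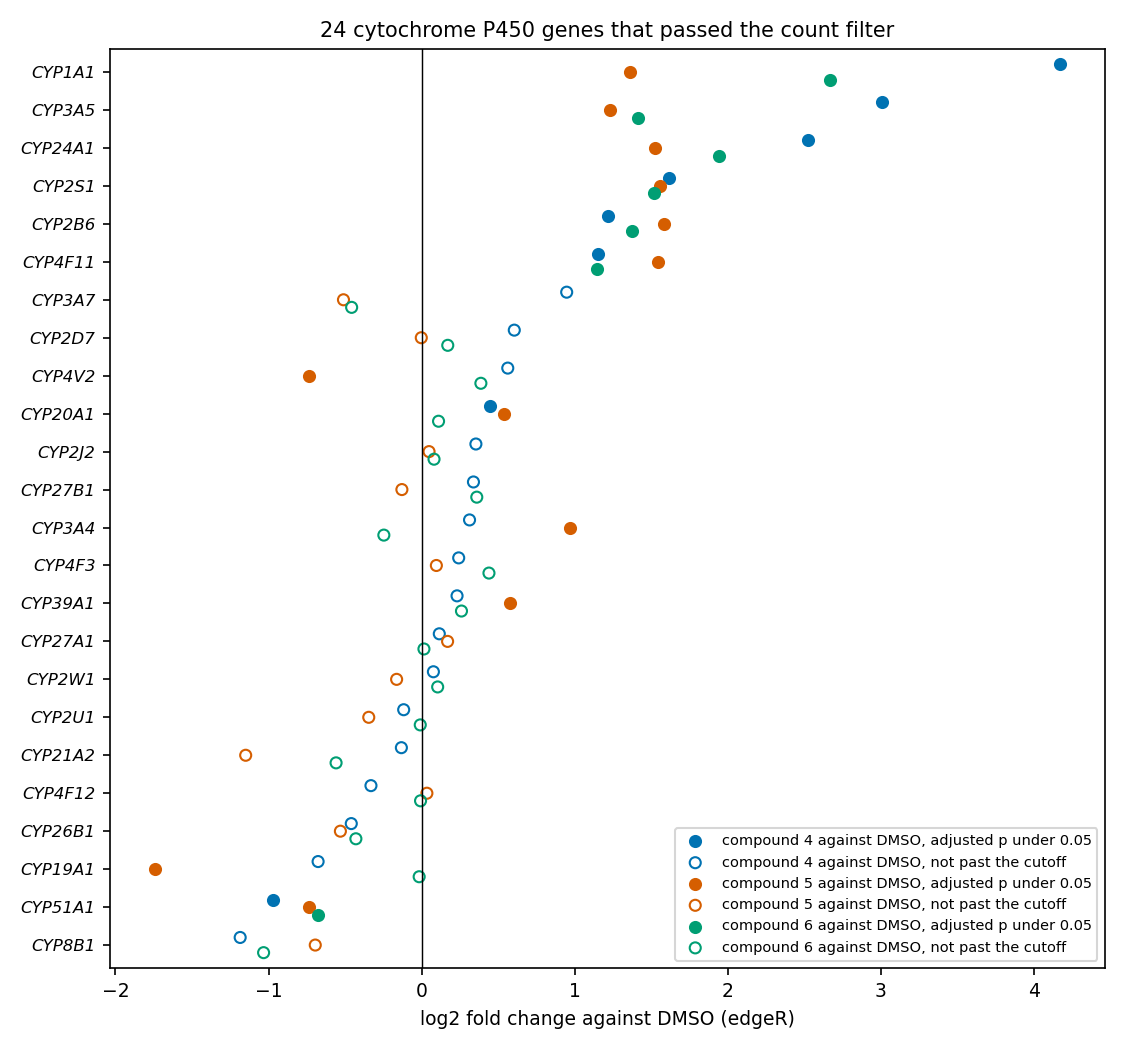
Log2 fold change against DMSO (edgeR) of 24 cytochrome P450 genes that passed the count filter, all but CYP7A1, ordered by the value of compound 4; filled points passed an adjusted p of 0.05 and open points did not. CYP1A1 is at the top for compounds 4 (4.17) and 6 (2.67), and its compound 5 point (1.36) lies below those of CYP24A1, CYP2S1, CYP2B6, and CYP4F11.

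The 5 tested genes whose log2 CPM followed CYP1A1 most closely over the 8 samples were MVP (Pearson r 0.989), AQP8 (0.986), ITGB5 (0.982), S100A4 (0.981), and PSD4 (0.977). The 8 points come from 4 groups and share library scaling, and these correlations are a description. Since the genes were picked for following CYP1A1 over these same samples, their changes are given without a test. With compound 4 the log2 fold changes were 1.22 for MVP, 1.65 for AQP8, 0.63 for ITGB5, 1.25 for S100A4, and 0.51 for PSD4, each below the 4.17 of CYP1A1. With compound 6 they were 0.80, 1.10, 0.43, 0.64, and 0.28 in the same order. With compound 5 they were 0.36, 0.49, 0.29, 0.37, and 0.07.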

How the data were processed

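Reads from strand-specific paired-end libraries were checked with FastQC 0.12.0 and quantified with Salmon 1.5.0 on the GENCODE transcriptome by the authors, who used tximeta for the sums per gene. They deposited these estimated counts as whole numbers, not scaled for library size. Per the column names, replicate 1 of compounds 4 and 5 each merged 2 numbered parts, and the names do not say what these parts are. Of 60230 gene identifiers, 60089 matched a symbol.

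The analysis used edgeR 4.0.16 under R 4.3.3. Libraries were scaled by TMM (factors 0.958 to 1.04) and filtered by filterByExpr, which left 13404 genes. The quasi-likelihood test with Benjamini-Hochberg adjustment was fitted to all 8 samples with the 4 groups, at a cutoff of 0.05. Intervals are 95% intervals of the fold change. The procedure was tested on simulated data. Within groups, the chi-square between replicates was 5.51 to 17.2 per degree of freedom, above counting noise, and none was counted as a duplicate.

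Alternatives were DESeq2 1.42.0, other scalings, other count filters, the replicate block, only the groups compared, a cutoff of 0.01, and leaving out each replicate. The labels give days 1 and 2 in every group, and the day served as the block. Deviations of same-day samples correlated between -0.083 and 0.16.

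The members, lists, and tests were chosen with earlier results of these data known. Named were the members, CYP3A4, the highest and lowest 2 called genes of each list and compound (3 for P450 genes), and the 5 genes most like CYP1A1. IGFBP1, SLC7A5, and NQO1 were named after their values were seen. A gene of the lists is not reported here by name. Gene coordinates, overlaps, and shared 31-base stretches came from GENCODE on GRCh38, and promoters from RefSeq (GRCh38.p14). No permutation test was run, because groups of 2 cannot reach the cutoff.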

Additional observations from a re-analysis of the deposited data

How the results depend on the processing

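The sign of CYP1A1 and AHR against DMSO was the same in every alternative run. At a cutoff of 0.01, edgeR called 591, 1809, and 92 genes for compounds 4, 5, and 6 against DMSO in place of 1598, 3763, and 590, and 282, 1, and 282 for compound 5 against 4, 6 against 4, and 6 against 5 in place of 1869, 6, and 1330. The other pathway genes called were then 6, 16, and 3 in place of 15, 26, and 9. Without a filter, 1441 genes were called for compound 6 against DMSO (19 of the other pathway genes), 2812 for compound 5 against 4, 294 for compound 6 against 4, and 2117 for compound 6 against 5. With only the groups compared, 897 were called for compound 5 against 4, 2 for compound 6 against 4, and 14 other pathway genes for compound 6 against DMSO. DESeq2 called 75 for compound 6 against 4. The PSD4 change with compound 5, 0.07, turned to -0.017 with upper-quartile scaling and -0.035 with library-size scaling. These scalings moved the median change of all genes with compound 5 to -0.118 and -0.136, and the share of its calls that were higher from 49.3% to 36.6% and 33.4%, against 53.1% with RLE and 59.2% with DESeq2. The cause of these shifts was not tested.

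Leaving out 1 replicate gave between 335 and 1703 genes called for compound 4 against DMSO, 1680 and 4519 for compound 5, 1 and 1096 for compound 6, 111 and 2709 for compound 5 against 4, 0 and 117 for compound 6 against 4, and 143 and 1875 for compound 6 against 5. The other pathway genes called ranged from 3 to 23, 17 to 32, and 0 to 16 for compounds 4, 5, and 6. A group left with 1 sample was assumed to vary like the others. The lowest counts against DMSO were those without DMSO replicate 2 for compounds 4 and 6 and without compound 5 replicate 1 for compound 5.

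With the replicate block, 1549, 3676, and 499 genes were called for compounds 4, 5, and 6 against DMSO, and 1635, 6, and 1224 for the pairs 5 against 4, 6 against 4, and 6 against 5. Among the named genes other than those picked for following CYP1A1, the block ended the calls of RB1 with compound 4 and VAV3 with compounds 4 and 6. It changed no call of the 8 members.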

Other observations

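Beside the AHR pathway, 11 of 12 targets of NRF2, the oxidative stress factor whose own gene AHR can induce, were tested. Compound 4 raised 8, compound 5 raised 7 and lowered 1, and compound 6 raised 7, beside 6.50%, 13.9%, and 2.80% of all genes called higher and 5.42%, 14.2%, and 1.60% called lower. The medians of the list were 0.63, 1.38, and 0.62 on the log2 scale. OSGIN1, a growth inhibitor induced by oxidative stress, rose by 1.17 with compound 4 and 2.03 with compound 5. SLC7A11, the cystine transporter, rose by 2.27 with compound 5 and 1.66 with compound 6, the last call lost without DMSO replicate 1, DMSO replicate 2, or compound 6 replicate 2 (values 1.39 to 1.91 over the omissions). AKR1B10, an aldo-keto reductase, rose by 1.09 with compound 4. GCLM, a subunit of the glutathione-making ligase, rose by 0.79 with compound 6, a call lost without the same 3 libraries (0.57 to 1.01). HMOX1, heme oxygenase, was lower with compound 5 (-0.36), a call lost without a filter and without any 1 of the DMSO or compound 5 replicates (-0.43 to -0.26). NQO1, which this list shares with the AHR-responsive genes, was among the members not called.

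Of 10 hepatocyte markers, compound 4 raised 1 and lowered 3, compound 5 lowered 3, and compound 6 lowered 2, beside the same shares of all genes. Of the 10, 3, 3, and 4 had a log2 fold change above 0 with compounds 4, 5, and 6.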
